A study of Mus musculus with 15 samples.

Results

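Bmi1 and 8 other genes of the Polycomb complexes were followed in the livers of 3 groups of mice. The genes were chosen by name, as all probes other than controls whose gene name on the array was Bmi1, Pcgf2, Ring1, Rnf2, Cbx7, Cbx8 or Phc1, which encode subunits of Polycomb repressive complex PRC1, or Ezh1 or Ezh2, the catalytic subunits of PRC2. They are covered by 13 of the 55681 probes and make up 9 of the 22032 gene symbols. All mice were CD1 males and received weekly hydrodynamic gene delivery (HGD), the rapid injection of plasmid in a large volume into the tail vein, with 50 µg of plasmid. The controls, group C, were injected with saline and given empty plasmid. Mice of group T had the liver carcinogen diethylnitrosamine (DEN, 25 µg/g) on day 15 after birth followed by empty plasmid. Those of group G had the same DEN followed by a plasmid that carries Gas1 under the CAG promoter, which is active in most cell types and not in hepatocytes alone. By the study's methods, HGD was given in weeks 28 to 34 and livers were collected in week 35, whereas the sample labels give an age of 10 weeks. The study reports many tumors in all DEN-treated animals, with fewer large ones in group G and no significant difference in their total number. RNA from the livers was hybridised to 15 arrays (4 for group C, 5 for group T, 6 for group G). The study does not say which part of a liver gave the RNA, and the share of tumor tissue in it was not tested. One pair of arrays in group C and one in group T carry a single RNA code. Each pair was averaged and treated as 1 mouse, which gives 3, 4 and 6 mice below, although the labels do not say whether a code stands for 1 animal.

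Polycomb proteins keep genes silent by modifying histones. PRC2 methylates histone H3 through Ezh1 or Ezh2, and PRC1 ubiquitinates histone H2A through the ligases Ring1 and Rnf2, which work with a Pcgf protein such as Bmi1 or Pcgf2, a Cbx protein that reads the mark of PRC2 and a Phc protein that lets complexes cluster. Bmi1 is best known for repressing the Cdkn2a locus, which encodes cell cycle inhibitors, and in the liver Polycomb proteins are known to hold developmental genes silent. In RNA from liver tissue, fewer cells of a type and less RNA per cell cannot be told apart.

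Between 15707 and 29765 spots per array were well above background, and the second mouse of group C had the lowest number. The arrays lay on 2 slides, each with arrays of all groups. The 6 hepatocyte markers were well above background on all 15 arrays. The mean of the list over a mouse lay between 14.97 and 15.14 in group C and between 14.80 and 15.08 in group T. In group G it lay between 14.75 and 15.33. Markers without a value in a mouse were left out of its mean. Tat, with a mean of 12.55 in group G, had a value in 5 of the 6 mice there. The upper end of 15.33 is therefore not read as a higher level. Of these markers Ttr, which encodes a plasma carrier protein, fell from group C to group T (log2 fold change -1.01, adjusted p = 0.00594, limma), and the other 5 did not pass, among them Alb at -0.37 and Apoa1 at 0.54. None of the 5 cholangiocyte markers or the 5 stellate cell and fibroblast markers was called between groups T and C (limma), while 3 and 1 of them were lower at an unadjusted p under 0.05 and 4 and 5 had estimates below 0. Of all genes, 9.48% were lower at that level and 10552 of 22032 had estimates below 0. Among the cholangiocyte markers lower at that level, Krt7 and Epcam were well above background on 4 arrays each and on 0 of group T. The mean of the cholangiocyte list ran from 6.52 to 6.68 in group C, from 6.41 to 6.52 in group T and from 6.43 to 6.75 in group G. Krt19 and Epcam each had a value in 5 of the 6 mice of group G, so that not every mean there covers the full list. For the stellate cell and fibroblast list the mean ran from 6.62 to 7.03, from 6.53 to 6.68 and from 6.54 to 7.15 in the same order of groups. Of the 5 macrophage markers, Emr1, a gene of mature macrophages, rose from group C to group T (0.31, adjusted p = 0.0262, limma), and the other 4 did not pass, with Marco at 0.83, Csf1r at 0.066, Clec4f at -0.054 and Cd68, above background on 4 arrays, at -0.25. Emr1 was well above background on 13 arrays, of which 2 were of group C. The mean of the macrophage list over a mouse lay between 7.27 and 7.54 in group C, between 7.49 and 7.67 in group T and between 7.40 and 7.79 in group G. The part of these markers in the differences given below was not tested. The array's Gas1 signal did not separate groups T and G, and whether its probes read the delivered construct was not tested. Its log2 signal lay between 6.41 and 6.61 in group T and between 6.49 and 6.79 in group G (adjusted p = 0.768, limma).

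Bmi1 was the member whose signal differed between groups, so the sequence around its start is shown, from 250 bases before to 50 after the start in the RefSeq annotation of GRCm38.p6 (chr2:18676768-18677067, plus strand). Capitals mark the letters CACGTG, the core of an E-box bound by Myc and related factors, and GGGCGG or its complement, a GC box.
Bmi1: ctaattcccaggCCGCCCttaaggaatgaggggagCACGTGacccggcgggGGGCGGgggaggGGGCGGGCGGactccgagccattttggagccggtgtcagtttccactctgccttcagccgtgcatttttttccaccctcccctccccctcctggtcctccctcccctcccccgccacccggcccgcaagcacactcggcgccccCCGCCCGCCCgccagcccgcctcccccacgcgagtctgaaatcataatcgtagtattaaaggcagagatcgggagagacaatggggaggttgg
CACGTG was found once, 215 bases before the start, and GGGCGG 6 times on either strand, with some matches overlapping. Of 32851 promoters of the same length, 7.15% hold CACGTG and 35.7% hold GGGCGG. Among the 9 members, the promoters of Bmi1, Cbx8 and Pcgf2 hold CACGTG, and those of Bmi1, Cbx7, Cbx8, Pcgf2, Ring1 and Rnf2 hold GGGCGG. The E2F site TTTGGCGC was found in that of Ezh2 only among the members (0.514% of all promoters), and TTTCCCGC (1.07%) and GACCACCCA (0.253%), a site of the Gli factors, in none. These matches are a description of the letters in the window.

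In DEN-treated livers Bmi1 was higher than in the control livers, and in livers that also received Gas1 it lay between both. The log2 signal of Bmi1 was 6.74, 7.02 and 6.89 in the mice of group C. In group T it was 7.45, 7.65, 7.40 and 7.65. In group G it was 6.87, 7.04, 7.06, 7.40, 7.29 and 6.97. All 4 mice of group T were thus above all 3 of group C, while the highest mouse of group G reached the lowest of group T and the lower mice of group G fell within the range of group C. Group T exceeded group C by 0.65 on the log2 scale (95% confidence interval 0.39 to 0.91), a fold of 1.57 with an adjusted p of 0.0209 (limma). Group G against group T gave -0.43 (-0.65 to -0.21), with an unadjusted p of 0.0011 and an adjusted p of 0.125 (limma) that did not pass. That call rests on the averaging of arrays, since the adjusted p was 0.0338 with the 15 arrays of Bmi1 as separate mice and 0.047 with only the pair of group C averaged. Both settings count the arrays of group T with a single RNA code as separate mice. In them the number of all genes called between groups G and T rose from 28 to 263 and 189. Group G against group C gave 0.22 (-0.019 to 0.47, adjusted p = 0.419, limma), and an unadjusted p of 0.0673. Both comparisons with group T share its mice. The study lists Bmi1 among genes it selected on these livers for a rise with DEN and a return with Gas1, so these tests are not independent evidence of that pattern. The study also measured Bmi1 by quantitative RT-PCR in animals of the same groups. It reported there a higher level with DEN that was restored with Gas1. Those measurements are not part of the array data used here.

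**Figure D1:**
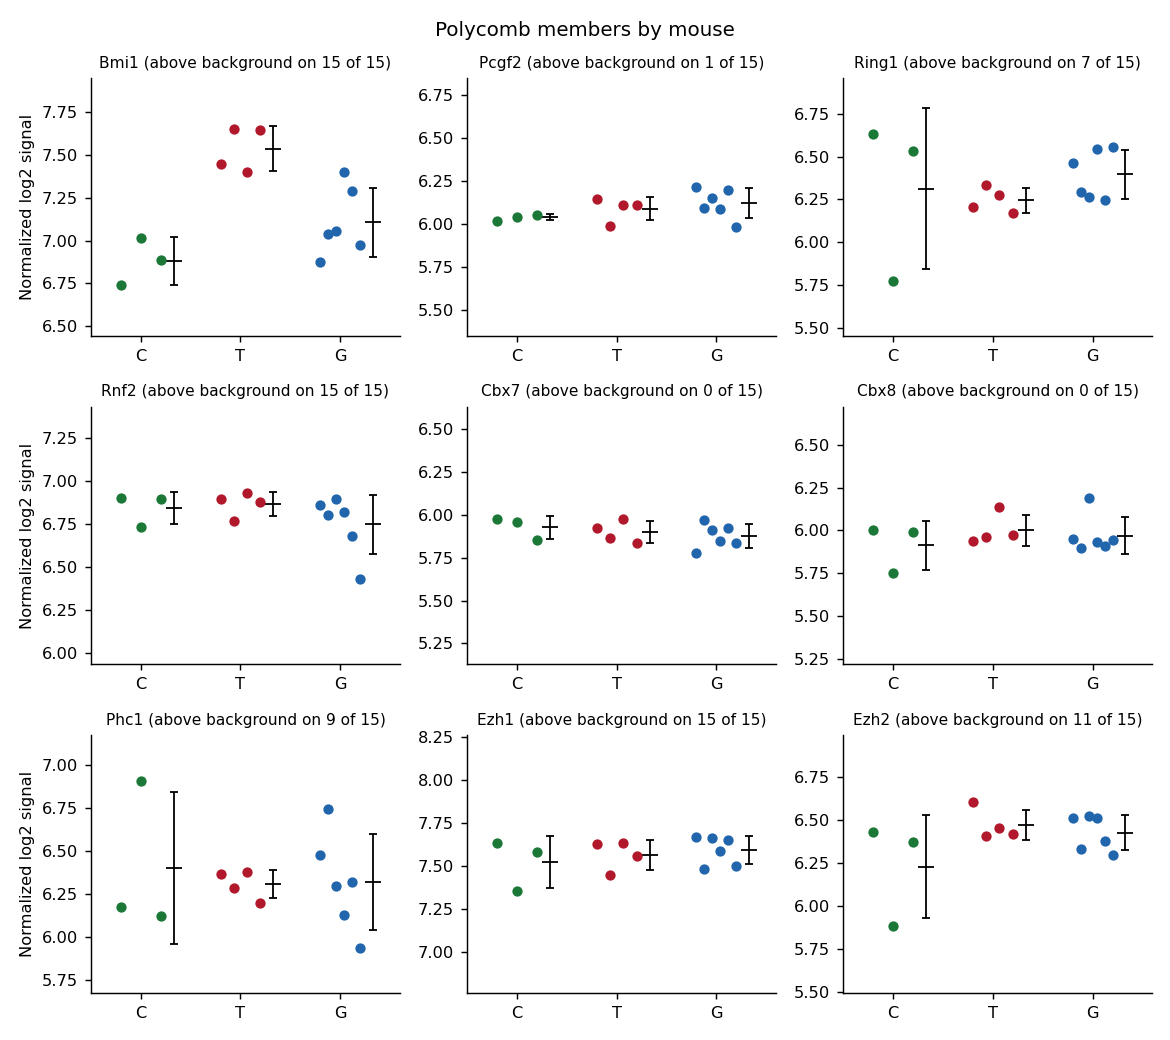
Normalized log2 signal (vertical axis, each panel spanning 1.5 log2 units) of the 9 members in the 13 mice by group, 1 point per mouse, with the mean and SD beside the points. The 4 mice of group T lie above all 3 of group C for Bmi1 only, and the second mouse of group C lies apart from the others of its group for Ring1, Phc1 and Ezh2.

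Both Bmi1 probes were examined singly, because the values of one were mostly missing. The first lies on chromosome 2 of mm9 at 18607531 to 18607590 and is printed in column 164, the last of the array, and the second at 18607987 to 18608046 inside the array. The spot of the edge probe was well above background on all 15 arrays and was never marked as an outlier itself, but its local background was marked as a population outlier on 10 arrays, which removed it there. Such a mark was carried by 27.8% of the 1003 spots in the outermost rows and columns and by 1.25% of the other 58302. The probes differ in brightness and their levels are not compared with each other.

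The inner probe, with a valid spot on every array, had log2 signals of 6.28, 6.64, 6.49 and 6.54 on the arrays of group C. On those of group T they were 7.07, 7.19, 7.02, 7.36 and 7.28. On those of group G they were 6.50, 6.73, 6.72, 7.02, 6.91 and 6.60. All arrays of group T were above all of group C, and 1 array of group G came up to the lowest of group T. On the first 2 arrays of group C the inner probe was not well above background, so that its level there is uncertain. For this probe alone group T exceeded group C by 0.67 (adjusted p = 0.0293, limma over all probes), where 1.23% of all probes passed, and group G against group T gave -0.40 (adjusted p = 0.228).

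When spots marked for their background alone were kept, the edge probe gave 7.21, 7.11, 7.22 and 7.43 on the arrays of group C. In group T it gave 7.70, 8.09, 8.02, 7.76 and 7.84. In group G it gave 7.31, 7.34, 7.39, 7.55, 7.35 and 7.06. Here the arrays of group T stood above all arrays of groups C and G. The share of all probes with arrays so separated was not counted, here or for the inner probe. The edge probe alone then differed between groups T and C by 0.69 (adjusted p = 0.0182, limma) and between groups G and T by -0.57 (adjusted p = 0.0622). With both probes combined in this way, a setting added after the data had been seen, Bmi1 rose by 0.68 from group C to group T (adjusted p = 0.00917, limma). Group G minus group T was -0.49 (adjusted p = 0.0511, limma), just short of the threshold. The 4 mice of group T did not overlap with the 6 of group G in this setting, whereas they did in the values given first. In those values, 2.03% of all genes had all mice of group G below those of group T. With every flagged spot kept, the adjusted p of group G minus group T was 0.0485 (limma). With flagged spots dropped, as in the values given first, the differences of Bmi1 kept their sign within each slide. Group T exceeded group C by 0.75 on slide 1 and by 0.64 on slide 2, and group G minus group T was -0.55 and -0.40, as differences between array means. Each pair of arrays with a single RNA code was split over both slides, so that the slides are not independent.

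**Figure D2:**
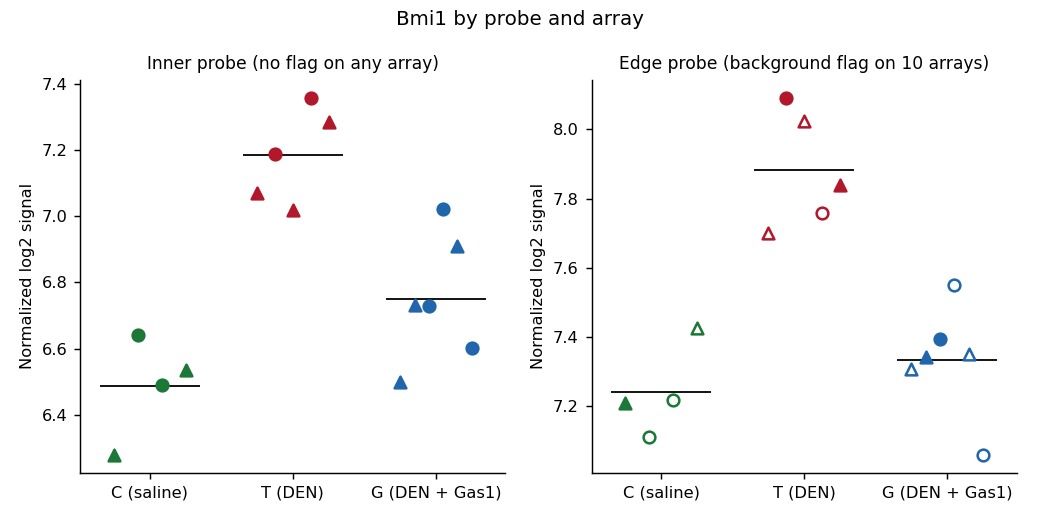
Normalized log2 signal (vertical axes) of each Bmi1 probe on 15 arrays by group, with all spots kept. Circles are arrays of slide 1 and triangles those of slide 2, open symbols are spots left out of the values in the text for their background flag, and lines are group means. On the edge probe all 5 arrays of group T lie above all arrays of groups C and G, while on the inner probe 1 array of group G reaches the lowest of group T.

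Of the 9 members, 1 was called between groups T and C, which was Bmi1, where 2.38% of all genes were called and 1.22% were called higher. It was also the only member whose mice did not overlap, with group T higher, which held for 10.5% of all genes. No member was called between groups G and T (0.127% of all genes) or between groups G and C (0.427%). At an unadjusted p under 0.05, Bmi1 passed in the first comparison (20.3% of all genes) and in the second (10.9%), and none did in the third (13.2%). The median log2 fold change of the members was 0.042 between groups T and C, against 0.0061 over all genes. Apart from Bmi1, the estimates of the members ran from -0.094 to 0.24 between groups T and C. Of the 9 members, 3 were well above background on all arrays and 2 on none, so that the median and this range include values at background.

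Pcgf2 (Mel18), which takes the place of Bmi1 in a part of PRC1 complexes, was at the limit of detection. Its signal lay between 6.02 and 6.05 in group C, between 5.99 and 6.15 in group T and between 5.98 and 6.22 in group G, and of its probes on chromosome 11 the one at 97553207 to 97553380 was well above background on 1 array and the one at 97551160 to 97551219 on none. The difference between groups T and C was 0.051 (-0.081 to 0.18), one between values near the background.

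Of the ubiquitin ligases, Rnf2 (Ring1b), read by 1 probe (chromosome 1, 153316987 to 153317046), stood well above background on each of the 15 arrays. Its signal was 6.90, 6.73 and 6.89 in group C and 6.89, 6.77, 6.93 and 6.88 in group T. In group G it lay between 6.43 and 6.90 with a median of 6.81. The groups overlapped, and the difference between groups T and C was 0.026 (-0.19 to 0.24), an interval that ends below the 0.39 at which that of Bmi1 begins. Ring1 (chromosome 17, 34158164 to 34158223) was well above background on 2 arrays of group C and 5 of group G, but on none of group T. Its signal was 6.63, 5.78 and 6.53 in group C and 6.20, 6.33, 6.28 and 6.17 in group T, so that the mice of group T lay between those of group C. In group G it ran from 6.25 to 6.56. Group T thus has only a bound for Ring1, and no fold is read from it. Its difference from group C was -0.069 (-0.42 to 0.29, adjusted p = 0.868, limma), which turned to 0.091 without the first and to 0.040 without the third mouse of group C. Group G against group T gave 0.15 (-0.15 to 0.45, adjusted p = 0.745, limma). Both arrays of the third mouse of group C, made from the same RNA code, differed in Ring1 by 0.51.

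The Cbx readers were not measured above background. Cbx7 (chromosome 15, 79746240 to 79746299) and Cbx8 (chromosome 11, 118899777 to 118899836) were well above background on 0 of the 15 arrays, with signals between 5.78 and 5.98 and between 5.75 and 6.19, so that differences between groups are differences between background values and are not read as folds. Phc1, the polyhomeotic subunit (chromosome 6, 122268043 to 122268102), was well above background on 9 arrays. Its signal was 6.18, 6.91 and 6.12 in group C and 6.37, 6.29, 6.38 and 6.20 in group T. In group G it ran from 5.94 to 6.75. The spread within groups C and G exceeded the difference between any groups, which was at most 0.094 in size (group T against group C, -0.094).

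The catalytic subunits of PRC2 were both measured. Ezh1, the form that prevails in cells that do not divide, has 3 probes on chromosome 11, of which those at 101052680 to 101052739 and 101052430 to 101052489 were well above background on all arrays and that at 101054534 to 101054593 on 2. Its signal was 7.63, 7.35 and 7.58 in group C and 7.63, 7.45, 7.63 and 7.56 in group T. In group G it lay between 7.49 and 7.67. The difference between groups T and C was 0.042 (-0.13 to 0.21), less than the spread between mice. Ezh2, the form that prevails in dividing cells (chromosome 6, 47480307 to 47480366), was well above background on 11 arrays. Its signal was 6.43, 5.89 and 6.37 in group C and 6.60, 6.41, 6.46 and 6.42 in group T. In group G it lay between 6.30 and 6.52. The estimate between groups T and C was 0.24 (-0.0050 to 0.49, adjusted p = 0.257, limma). The second mouse of group C decided most of it, as the difference was 0.070 without that mouse.

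**Figure D3:**
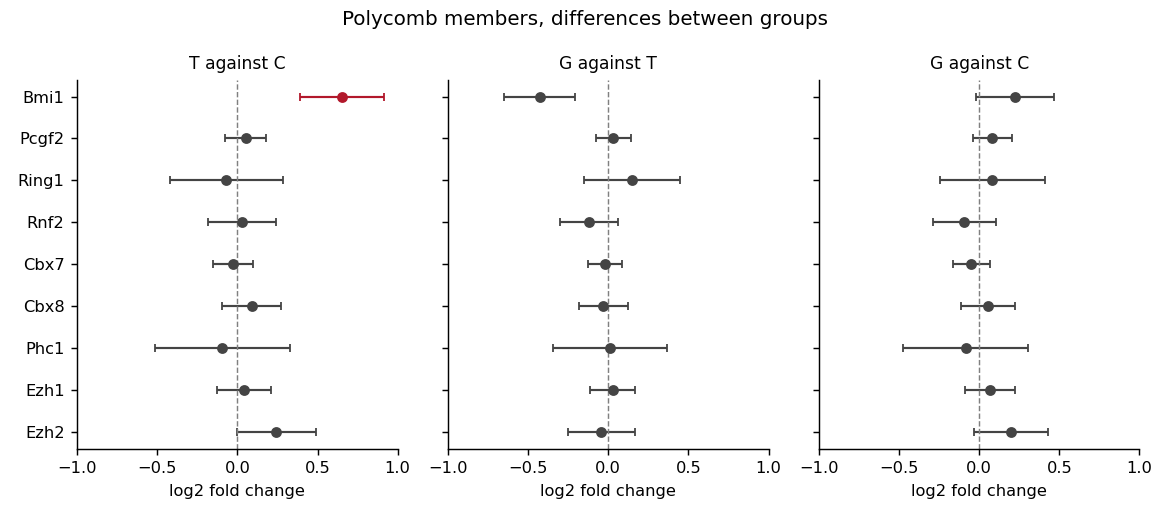
Log2 fold change (horizontal axes) of the 9 members in the 3 comparisons, with 95% confidence intervals from the limma fit over 13 mice. The filled red point is Bmi1 between groups T and C, the only value with an adjusted p under 0.05, and the intervals of all other members include 0 in every panel.

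The other Polycomb genes were taken from a list of 40, made up of 22 further PRC1 genes, 10 further PRC2 genes and 8 genes of enzymes or cofactors that remove the marks. Between groups T and C, 1 of the 40 was called higher and none lower (limma), 7 were higher and 1 lower at an unadjusted p under 0.05, and in 8 the mice of group T were all above those of group C. Of all genes, 1.22% were called higher, 10.8% were higher at an unadjusted p under 0.05 and 10.5% had all mice of group T above those of group C. The median log2 fold change of the 40 was 0.099, with 30 of 40 above 0 against 52.1% of all genes, and stayed above the median of all genes under each of the scalings tried. Of the 40, 24 were well above background on all arrays, against 8493 of all 22032 genes. With dim probes filtered out, the median of all genes was 0.038. The list was not compared with genes of like brightness. Between groups G and T none was called (3 lower and 0 higher at an unadjusted p under 0.05, median -0.028), and between groups G and C none was called either (4 higher and 0 lower at an unadjusted p under 0.05, median 0.071). Of all genes, 6.73% were lower and 4.13% higher at that level between groups G and T. Between groups G and C, 6.17% of all genes were higher and 7.02% lower. Scml2, Phf19 and Asxl3 were well above background on no array.

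The gene called was E2f6, the repressive E2F factor of a variant PRC1 that contains Pcgf6 and Mga. The log2 signal of E2f6 was 7.99, 7.94 and 8.15 in group C and 8.35, 8.34, 8.40 and 8.48 in group T. In group G it was 8.16, 8.15, 8.21, 8.30, 8.24 and 8.38. All mice of group T were above those of group C and the mice of group G reached into the range of group T. From group C to group T, E2f6 rose by 0.37 (adjusted p = 0.0209, limma, standard error 0.068), and group G against group T gave -0.15 (adjusted p = 0.36). The gene has 1 probe (chromosome 12, 16833463 to 16833522), well above background throughout. The call was lost in 8 of 30 other settings, among them those without the first or the second mouse of group C (adjusted p = 0.0753 and 0.0718) and without the third or the fourth mouse of group T (0.0618 and 0.0622).

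Of the further PRC1 genes, Cbx6, a Cbx protein, gave 0.18 between groups T and C (adjusted p = 0.153), Kdm2b, which brings a variant PRC1 to CpG islands, gave 0.20 (0.191), and Mga gave 0.23 (0.296), all from limma. L3mbtl2, a subunit of the E2f6 complex, was the gene with the lowest value, with -0.35 (adjusted p = 0.143). In group G against group T, Kdm2b gave -0.13 and Yaf2, an adaptor of variant PRC1, gave -0.11 (adjusted p = 0.51 and 0.6). In group G against group C, E2f6 gave 0.22, Cbx6 0.20, Pcgf3 0.14, Bcorl1 -0.16 and L3mbtl2 -0.21 (adjusted p of 0.162 to 0.47).

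Of the further PRC2 genes, Rbbp4, a histone-binding subunit, gave 0.27 between groups T and C (adjusted p = 0.139) and Jarid2, an accessory subunit, gave 0.29 (0.212). The core subunits Suz12 and Eed gave 0.14 and -0.0069. With Gas1, as group G against group T, Rbbp4 gave -0.16, Aebp2 0.18 and Phf19, above background on no array, 0.10 (adjusted p of 0.494 to 0.625, limma). Against group C, group G gave 0.28 for Aebp2 and 0.23 for Jarid2 (adjusted p = 0.378 and 0.431).

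Among the 8 erasers none was called between groups T and C (limma), where 2 were higher at an unadjusted p under 0.05, and Mysm1 and Usp16 had the lowest p. Usp16, a deubiquitinase of histone H2A that opposes PRC1, had signals of 8.70, 8.44 and 8.58 in group C and 8.84, 8.87, 8.93 and 8.95 in group T. In group G it was 8.49, 8.52, 8.75, 8.85, 8.78 and 8.45. The difference was 0.33 between groups T and C (adjusted p = 0.0994) and -0.26 between groups G and T (adjusted p = 0.277, limma), with both probes of Usp16 giving the same signs. Mysm1, a second H2A deubiquitinase, gave 0.26 between groups T and C (adjusted p = 0.0782) and -0.14 between groups G and T (adjusted p = 0.444). The mice of groups T and C did not overlap for either gene, whereas those of groups G and T did. Kdm6a (Utx), which demethylates the mark of PRC2, gave 0.21 between groups T and C (adjusted p = 0.251) and 0.20 between groups G and C (0.382). Bap1, a further H2A deubiquitinase, gave -0.010 between groups T and C (adjusted p = 0.972, limma). Its partners Asxl2 and Asxl3, the latter above background on no array, gave 0.15 and -0.098 between groups G and T (adjusted p = 0.483 and 0.493), and Asxl2 and Mysm1 gave 0.22 and 0.12 between groups G and C (adjusted p = 0.26 and 0.487).

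**Figure D4:**
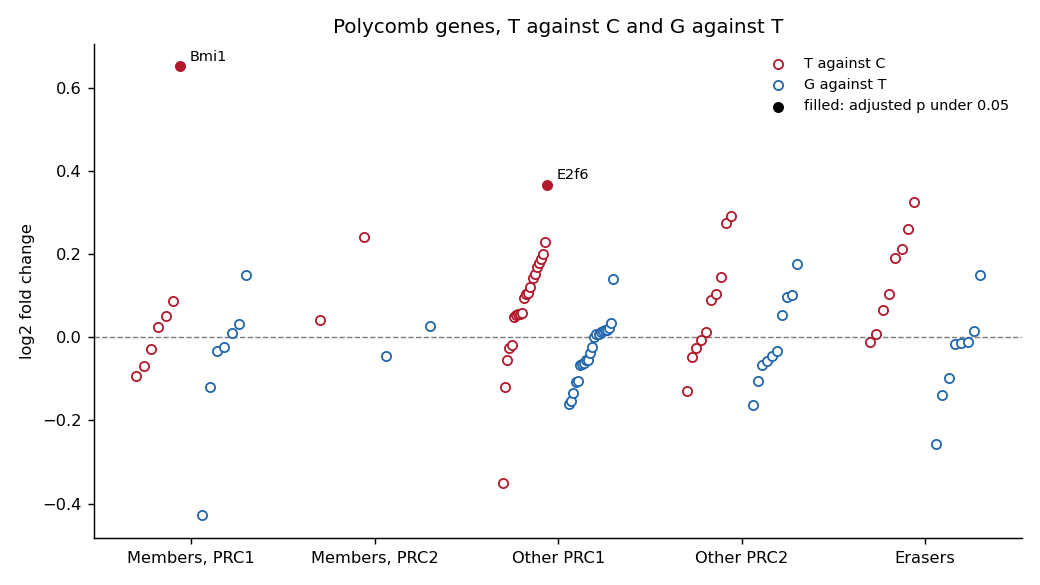
Log2 fold change (vertical axis) of the 9 members and the 40 other Polycomb genes by class, for group T against group C in red and group G against group T in blue, 1 point per gene. Filled points, which are Bmi1 and E2f6 between groups T and C, have an adjusted p under 0.05, and most points of the other PRC1 genes and the erasers lie above 0 in red.

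Many of the genes that Polycomb complexes are known to repress were near or below the limit of detection. Cdkn2a, which encodes p16 and p19, was well above background on 7 arrays with 1 of its 2 probes and on none with the other. Its signal was 6.05, 5.77 and 6.14 in group C and 6.05, 6.09, 6.36 and 6.25 in group T. In group G it lay between 6.06 and 6.24, so that the groups overlapped. The difference between groups T and C was 0.20 (adjusted p = 0.245, limma). Cdkn2b was above background on 0 arrays. Of the 39 Hox genes, 23 were above background on none, and 1 was called between groups T and C, where 2.38% of all genes were called and 1.17% were called lower. This was Hoxd1, a gene of the HoxD cluster, at -0.31 (adjusted p = 0.0324, limma), and it was well above background on 1 array of group C only. The mice of group T lay below all those of group C for 8 Hox genes and above them for 2 (8.61% and 10.5% of all genes). One of the 8, named after its values were seen, was Hoxc10, with group means of 7.03 (C), 6.18 (T) and 6.58 (G). It was above background on 3, 0 and 4 arrays of these groups, and group T against group C gave -0.85 (adjusted p = 0.119, limma). The median of the Hox genes was -0.016 between groups T and C and 0.0097 between groups G and T (the sign of the latter turned to -0.038 under median scaling), and neither comparison of group G called one. Of 17 proliferation genes none was called in any comparison, with a median of -0.029 between groups T and C. Between groups G and T their median was 0.070, with 15 above 0 and 2 below, where 46.1% of all genes were above 0. Of the 17 genes, 4 were well above background on no array. Mki67, a marker of dividing cells, gave 0.050 between groups T and C, and Mcm6, a subunit of the replicative helicase, gave 0.65 between groups G and T (adjusted p = 0.313).

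The gene that lies next to Bmi1, Commd3, upstream on the same chromosome, was read by 1 probe (18597631 to 18597690 of mm9), whose spot exceeded the background clearly on every array. It had valid spots in 9 of the 13 mice (2 of group C, 3 of group T), the others being dropped by the fit. Its signal was 9.94 and 9.91 in group C and 9.998, 9.96 and 9.85 in group T. In group G it was 9.76, 9.80, 9.72 and 9.73. The difference between groups T and C was 0.013 (adjusted p = 0.943) and that between groups G and T -0.19 (adjusted p = 0.256, limma). Downstream, Spag6, a gene of cilia and the next one with a probe, was above background on no array.

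Across the 13 mice, Bmi1 was compared with 7944 genes that were well above background on all arrays and had a value in every mouse. Those most like it in signal were Timm8a1, a chaperone of mitochondrial import (Pearson r = 0.90), Nme4, a mitochondrial nucleoside diphosphate kinase (0.90), Tmem62 (0.88), Podn, a leucine-rich matrix proteoglycan (0.87), and Txndc11, a thioredoxin-domain protein (0.86). The points share their group, and after the group means had been removed r was 0.77, 0.62, 0.63, 0.51 and 0.56 in the same order. Between groups T and C, Nme4, Podn and Txndc11 gave 0.52, 0.68 and 0.44, a description with no test, since the genes were chosen for their likeness to Bmi1 in the same mice. Of the other 8 members, only Rnf2 and Ezh1 were well above background on all arrays and could enter this ranking. Neither was among the genes named, with r of 0.10 and -0.099 to Bmi1. Over all 8, r to Bmi1 lay between -0.32 and 0.26, in part with values at or near background. The highest r between members was 0.80, for Ezh1 and Ezh2, and the lowest -0.74, for Phc1 and Ring1, and in both pairs the second mouse of group C held an extreme value.

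**Figure D5:**
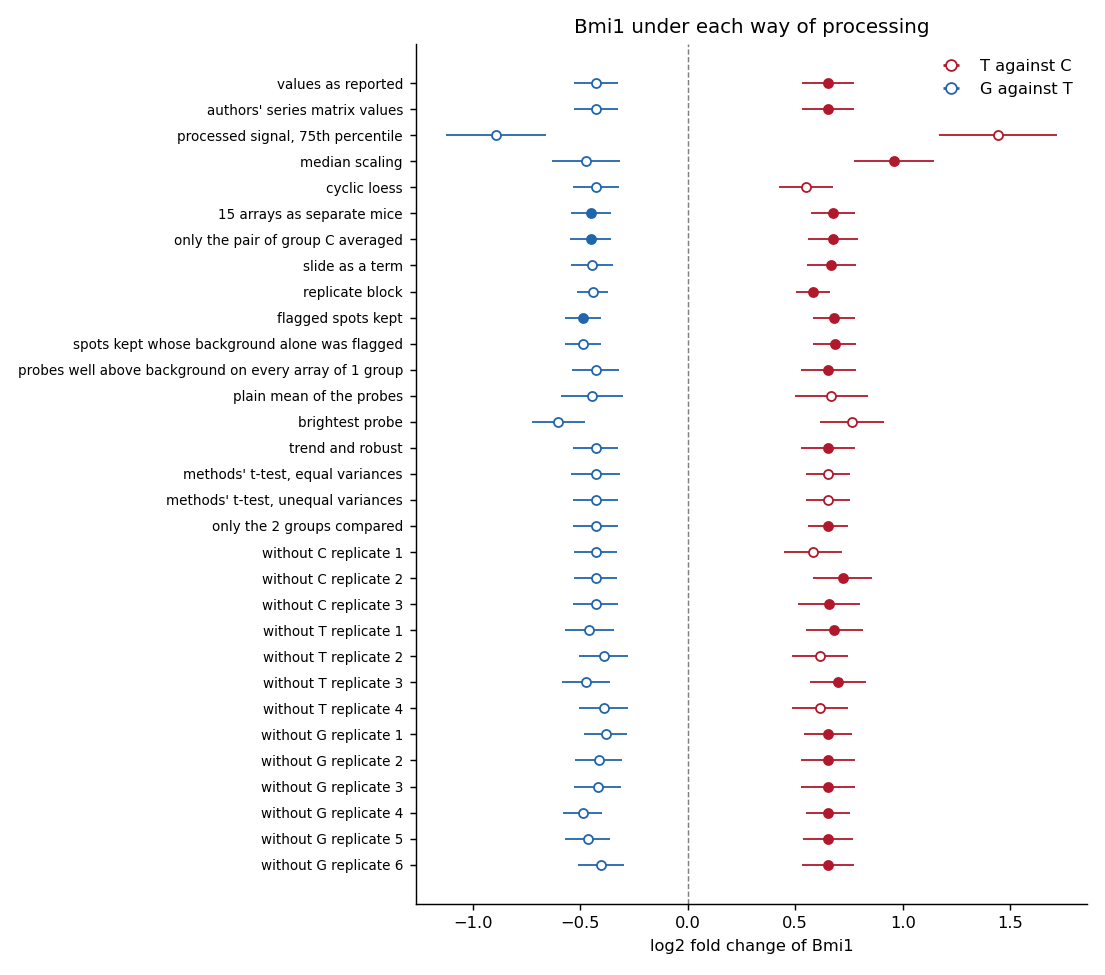
Log2 fold change of Bmi1 (horizontal axis, with standard errors) under the values as reported and 30 other settings, for group T against group C in red and group G against group T in blue. Filled points have an adjusted p under 0.05, and all red points lie above 0 and all blue points below 0.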

How the data were processed

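Liver RNA was measured on single-colour Agilent arrays. Spot and background intensity were deposited as read by Agilent Feature Extraction, and a table of log2 values for the series, which per the methods were background-corrected with normexp and quantile normalized. The deposited mean intensity was processed again with limma 3.58.1 in R 4.3.3. It was corrected with normexp (offset 50), any spot flagged as an outlier was dropped, and 59305 non-control spots were quantile normalized. Spots of a probe were averaged, and probes of a gene symbol were centred, averaged and returned to their mean level. Arrays of 1 RNA code were averaged and treated as 1 mouse, since the SD of their log2 difference was 0.146 against at least 0.291 (group C) and 0.143 against at least 0.235 (group T) for other pairs. Replicate numbers did not pair mice (correlations of -0.24 to 0.19 between same-numbered mice). The 22032 gene symbols were fitted with lmFit and eBayes, 1 mean per group, with Benjamini-Hochberg adjustment and a threshold of 0.05. Simulated data were used to test the fit. Depth has no meaning on arrays, and the number of mice limits the precision. The labels do not say how RNA samples relate to animals, so the p-values measure the spread between these samples. Members and lists were chosen with earlier results of these data known. Named among the 40 further Polycomb genes are those called and, in each comparison, those of lowest p until 10. Also named are the 5 genes most correlated with Bmi1 and its nearest neighbours. Alternatives covered normalization, flags, replicates, slide, filter, probe summary and test. Probe positions are mm9 as in the files, and promoter sequences are from RefSeq with all 9 members matched.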

Additional observations from a re-analysis of the deposited data

Results flagged for a closer look

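In group G, Cbx8 of the third mouse stood apart from the other 5, with a log2 signal of 6.19 and a gap to the next mouse of 0.81 of the range of the group. Of 18 sets of 4 or 6 mice examined, it was the only one to pass Dixon's 95% limit, which chance passes in about 5% of sets. Cbx8 was well above background on no array.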

How the results depend on the processing

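Bmi1 was above group C in group T under all 30 other settings (0.55 to 1.44), and its call held in 21 of them. It was lost with processed signals scaled to the 75th percentile, cyclic loess, the plain mean of the probes, the brightest probe (the edge probe, valid on 5 arrays), both forms of the methods' t-test (adjusted p = 0.127 and 0.256) and without C replicate 1 (0.58), T replicate 2 (0.61) or T replicate 4 (0.62). Leaving out each mouse gave 0.58 to 0.72 for group T against group C and -0.49 to -0.38 for group G against group T. Group G against group T stayed negative (-0.89 to -0.38) and was called with 15 arrays as separate mice (-0.45, adjusted p = 0.0338), with only the group C pair averaged (-0.45, 0.047) and with flagged spots kept (-0.49, 0.0485). With the replicate number as a block, Bmi1 gave 0.58 (adjusted p = 0.0363), -0.44 (0.128) and E2f6 0.34 (0.0408) in the order above, and all genes called fell from 525 to 268, from 28 to 6 and from 94 to 55. The numbers did not pair the mice, and the cause of the lower counts was not tested. The block changed no call of a member.

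The count of members called between groups T and C was 1, and 0 under the settings named above, and 0 to 1 over the mice left out. Between groups G and T it was 0, and 1 in the 3 settings named above. For the 13 probes the count between groups T and C was 1, with 0 under cyclic loess, 2 with flagged spots kept, 2 with only background flags ignored, and 0 to 1 over the mice left out. For the 40 other Polycomb genes it was 1, with 0 under the 75th percentile, cyclic loess and both t-tests, 6 under median scaling, 3 with 15 arrays, 2 with only the group C pair averaged, and 0 to 2 over the mice left out. For the 58 target and proliferation genes it was 1, with 0 under the 75th percentile, cyclic loess, slide as a term, the filter on dim probes, both t-tests and only the 2 groups in the fit, 2 with 15 arrays, and 0 to 1 over the mice left out. Among all genes the count between groups T and C was 525, 56 with the 75th percentile, 193 with cyclic loess, 2832 with median scaling, 1947 with 15 arrays, 1279 with only the group C pair averaged, 799 with slide as a term, 0 with either t-test and 268 with the replicate block. Over the mice left out it ran from 89 (without T replicate 3) to 761 (without T replicate 1), with 125 and 104 without C replicates 1 and 2, 191 and 141 without T replicates 2 and 4 and 725 without G replicate 6, so the share of 2.38% moves with single mice. The counts ran from 5 to 127 between groups G and T and from 0 (without G replicate 3) to 182 between groups G and C. With all mice kept, the count between groups G and T was 28. It was 263 with 15 arrays, 189 with only the group C pair averaged and 30 with flagged spots kept. The median of all genes moved to -0.40 with the 75th percentile and 0.12 with median scaling.

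None of the 24 results of the other 8 members was called in any setting (lowest adjusted p = 0.0979), and 18 of them changed sign at least once. Between groups T and C the 75th percentile gave -0.47 for Pcgf2 and -0.68 for Cbx8, median scaling 0.073 for Phc1, cyclic loess -0.0021 for Rnf2 and 0.013 for Phc1, and the filter on dim probes -0.011 for Ezh1. Between groups G and T the 75th percentile gave -0.016 for Ezh1 and 0.056 for Ezh2, median scaling -0.020 for Phc1 and -0.024 for Ezh1, cyclic loess -0.043 for Phc1, the plain mean -0.086 for Ezh1 and the brightest probe -0.014 for Pcgf2. Between groups G and C the 75th percentile gave -0.078 for Pcgf2 and -0.81 for Cbx8, median scaling 0.22 for Rnf2, -0.0057 for Cbx8 and 0.053 for Phc1, and the replicate block 0.0053 for Rnf2 and 0.076 for Phc1. Over the mice left out, the values between groups T and C ran from -0.34 to 0.091 for Ring1, from -0.029 to 0.059 for Rnf2, from -0.23 to 0.16 for Phc1 and from -0.044 to 0.097 for Ezh1. Between groups G and T they ran from -0.0011 to 0.060 for Pcgf2, from -0.043 to 0.0022 for Cbx7, from -0.076 to 0.013 for Cbx8, from -0.076 to 0.086 for Phc1 and from -0.012 to 0.049 for Ezh1. Between groups G and C they ran from -0.19 to 0.24 for Ring1, from -0.025 to 0.10 for Cbx8, from -0.23 to 0.17 for Phc1 and from -0.017 to 0.12 for Ezh1. The second mouse of group C turned the sign of Rnf2, Phc1 and Ezh1 between groups T and C, and of Ring1, Cbx8, Phc1 and Ezh1 between groups G and C. The cause of these shifts was not tested, and members at or near background have no order there.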
